A study of Mus musculus with 36 samples.

Results

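Liver RNA of mice heterozygous for Pax3 Sp2H, a splotch allele, was compared with liver RNA of wild type B6 mice. The comparison used the 4 arrays titled Pax3 and the 4 titled B6 of the 36 arrays of the series, all labelled as biological replicates. The Pax3 mice were labelled as heterozygotes of strain Pax3Sp2H, and the B6 mice as wild type of strain C57BL/6J. All 8 mice were females of 6 to 8 weeks that had been fasted for 4 to 5 hours, and each mutant carries its allele in the germ line. No label gives a batch, cage or scan. The labels call the Pax3 line responsive to folic acid in the diet. The same B6 mice were also the controls of Apob tm1Unc heterozygotes; whether they were littermates of either line is not given in the sources used here. The other groups used are heterozygotes of strains Lrp6Cd and Vangl2Lp, each with wild type mice of the same strain label (Cd wild type and Lp wild type), Apob tm1Unc heterozygotes, and ct mice of a random-bred colony taken as ct/ct, with CBA/CaJ wild type mice as their control. Each group had 4 females of the same age. The liver was whole tissue, so fewer cells of a type and less RNA per cell cannot be told apart.

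Pax3 encodes a transcription factor with a paired domain and a homeodomain that acts in the dorsal neural tube, the neural crest and the precursors of limb muscle. Splotch embryos without a working copy have open neural tubes, while heterozygotes live and are known for a white belly spot. Sp2H is a small deletion within the gene. Pax3 is not known as a gene of the adult liver, whose hepatocytes make plasma proteins, burn fatty acids in the fasted state and respond to growth hormone.

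The arrays gave a linear signal for each probe set, scaled by the authors to a common trimmed mean of 500, and were analysed here as log2(signal + 23). A difference is Pax3 minus B6 on this log2 scale, ± its standard error from limma. Of all named genes, 12820 lay above a limit set on the mean level, which corresponds to a signal of 67.97. The ratio of 3' to 5' signal of GAPDH, a check of RNA integrity, was 0.811 to 0.849 on the Pax3 arrays and 0.765 to 0.903 on the B6 arrays. B6 replicate 3 had the highest such ratio of all Pax3 and B6 arrays for GAPDH (0.903), actin (2.3) and pyruvate carboxylase (26.6). On the other Pax3 and B6 arrays the actin ratio was 1.78 to 1.97 and the pyruvate carboxylase ratio 5.99 to 11.1. B6 replicate 3 was kept. Hepatocyte transcripts dominated both groups, with Alb, the gene of serum albumin, at signals of 34620 to 43230 in Pax3 and 49020 to 57690 in B6 livers.

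Pax3 replicate 3 stood apart from the other Pax3 arrays. Its median correlation with its own group was 0.955, against 0.961 to 0.962 for the other 3 Pax3 arrays and 0.959 to 0.962 for the B6 arrays. On this array 577 genes lay more than 1 log2 unit above the mean of the other 3 Pax3 arrays, and 331 lay as far below. The corresponding counts for the other 7 arrays, each set against the rest of its own group, were 99 to 159 above and 139 to 301 below. Its GAPDH ratio of 0.849 lay within the range of the other 7 arrays, and its actin ratio of 1.78 was below their 1.86 to 2.30. Many values that this array moves by over 1.5 times are given with and without it, though not all.

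The Pax3 transcript itself was near background in both groups. The brightest of its 3 probe sets read 107, 11.2, 6.44 and 17.3 in Pax3 livers, against 10.8, 63.0, 53.0 and 88.7 in B6 livers, and the groups overlapped. Its difference was -0.56 ± 0.43, with an unadjusted limma p of 0.204, and the other 2 Pax3 probe sets gave -0.13 and 0.02. All 3 lay below the limit on level, and the files do not place the probes relative to the deletion, so this transcript does not check the genotype labels.

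No gene passed the test between Pax3 and B6 livers. Of 12820 genes, 0 had a Benjamini-Hochberg adjusted p below 0.05 in limma (0%), and the smallest adjusted p was 0.0905, shared by Osbpl8, Fv1, Cdk5rap1, Ccs, Slc2a8 and Enho. At an unadjusted p below 0.05 there were 1154 genes (9%), 555 higher (4.33%) and 599 lower (4.67%). After each array was centred on its median these were 340 higher and 565 lower. The 4 Pax3 values lay wholly above the 4 B6 values in 289 genes (2.25%) and wholly below them in 418 (3.26%), in all 707 genes (5.51%). Without Pax3 replicate 3, 0 genes were called and 895 had an unadjusted p below 0.05 (6.99%), 401 higher (3.13%) and 494 lower (3.86%). When each array was weighted by its own spread, which gave Pax3 replicate 3 a weight of 0.375 and Pax3 replicate 4 a weight of 0.665, 25 genes were called, 13 higher and 12 lower. The genes below are those with the smallest p in each direction, given as values.

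Among the 12 genes with the smallest p and a higher mean in Pax3 livers were genes of lipid transport, cell signalling, the cell cycle and the cytoskeleton, with log2 differences from 0.48 to 1.51 and adjusted p from 0.0905 to 0.182. Osbpl8, an oxysterol-binding protein that exchanges lipids between the endoplasmic reticulum and the plasma membrane, read 691, 793, 545 and 563 in Pax3 livers, against 457, 327, 291 and 376 in B6 livers. The 2 groups did not overlap, and the difference was 0.80 ± 0.17 (adjusted p = 0.0905) with all arrays and 0.88 without Pax3 replicate 3. Atp11a, a flippase that moves phospholipids across the plasma membrane, read 146, 178, 197 and 125 in Pax3 livers, against 23.9, 78.9, 33.1 and 137 in B6 livers. Its B6 values spread widely, and B6 replicate 4 lay above Pax3 replicate 4. Snx5, a sorting nexin of endosomes, gave 0.68 ± 0.17, and its 4 other probe sets gave 0.16 to 0.48.

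Efnb2 encodes the membrane-bound ligand ephrin-B2 and read 236, 276, 335 and 280 in Pax3 livers, against 124, 149, 197 and 164 in B6 livers. Its 3 other probe sets gave -0.36, 0.08 and 0.24, so the difference of 0.76 ± 0.18 belongs to 1 probe set. Rb1, the retinoblastoma protein that holds cells out of S phase, was even within each group, at 736, 664, 731 and 709 in Pax3 livers, against 381, 457, 519 and 432 in B6 livers. The difference was 0.65 ± 0.16 (adjusted p = 0.168), and the other Rb1 probe set, below the limit on level, gave 0.02. Ppp2r5e, a regulatory subunit of protein phosphatase 2A, gave 0.85 ± 0.19 with the brightest of its 5 probe sets and -0.25 to 0.22 with the others.

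Fbxo42, a substrate receptor of ubiquitin ligases, had the largest of these differences at 1.51 ± 0.36. It read 375, 438, 454 and 498 in Pax3 livers, against 141, 98.9, 247 and 106 in B6 livers, with other probe sets at -0.06 and 0.26. Clasrp, a partner of splicing kinases, read 647, 827, 617 and 803 in Pax3 livers, against 378, 574, 148 and 359 in B6 livers. In B6 replicate 3 its signal was far under the other B6 values. Tbce, a chaperone that folds alpha tubulin, gave 0.57 ± 0.14, Lrif1, a nuclear receptor-interacting factor found at the inactive X chromosome, gave 0.55 ± 0.13, and Tex10, a factor of ribosome assembly, gave 0.48 ± 0.12 with another probe set at 0.18.

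Ugdh makes UDP-glucuronic acid, the sugar donor for glucuronidation, and its value depended on Pax3 replicate 3. It read 4222, 2494, 12210 and 3829 in Pax3 livers, against 2426, 2429, 2483 and 1390 in B6 livers. The difference was 1.14 ± 0.29 with all arrays and 0.69 without replicate 3. B6 replicate 4 was also far below the other B6 arrays, and Pax3 replicate 2 lay only just above the highest of them.

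The 12 genes with the smallest p and a lower mean in Pax3 livers included secreted proteins, a cytokine receptor, copper and sugar handling genes, a chaperone and a retroviral restriction gene, with log2 differences from -0.43 to -1.63. Fv1, which restricts murine leukaemia viruses after entry, had the smallest p of all genes. It read 29.9, 11.9, 17.7 and 12.2 in Pax3 livers, against 152, 78.1, 83.1 and 105 in B6 livers. Every Pax3 value lay below the limit on level and every B6 value above it, so the gene was tested only through the groups where it is brighter. The difference was -1.63 ± 0.32 (adjusted p = 0.0905), and its size depends on the number added before the log: it was -2.12 with 8 and -1.03 with 64 in place of 23. The Pax3 mean of Fv1 was the lowest of the 9 groups, the means of the other 8 running from 59.3 in ct to 164 in Lp heterozygotes.

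Enho encodes adropin, a peptide of liver and brain linked to energy balance. It read 625, 941, 534 and 714 in Pax3 livers, against 1527, 2015, 1325 and 1461 in B6 livers, a difference of -1.16 ± 0.24 (adjusted p = 0.0905) with no overlap. A second Enho probe set gave -1.17, while a further 2 gave 0.11 and -0.22. Mbl2, a mannose-binding lectin of the complement system, gave -0.43 ± 0.10 at signals of 21700 to 30310 in Pax3 and 32000 to 37670 in B6 livers. After quantile normalization, which gives all arrays the same distribution, the Mbl2 difference was -0.17. Lifr, the receptor of leukaemia inhibitory factor, read 3597, 4570, 1470 and 5375 in Pax3 livers, against 9486, 9988, 6299 and 10400 in B6 livers. The 2 other Lifr probe sets gave 0.13 and 0.01, so its -1.39 ± 0.34, which was -0.99 without replicate 3, was not shared among them.

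Slc2a8, the sugar transporter GLUT8, read 664, 744, 604 and 842 in Pax3 livers, against 1303, 1416, 1205 and 1309 in B6 livers. The groups were well apart, the difference was -0.86 ± 0.18, and B6 had the highest mean of the 9 groups and Pax3 the lowest. Ccs, the chaperone that loads copper into superoxide dismutase 1, read 5387, 5885, 4603 and 6604 in Pax3 livers, against 7777, 7785, 9513 and 9160 in B6 livers. Cdk5rap1, which modifies mitochondrial transfer RNAs, read 456, 397, 526 and 319 in Pax3 livers, against 714, 621, 663 and 672 in B6 livers. Its difference of -0.65 ± 0.13 was -0.75 without Pax3 replicate 3, the Pax3 array nearest to B6.

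Calr, the calcium-binding chaperone calreticulin of the endoplasmic reticulum, gave -0.56 ± 0.12, and its 2 other probe sets gave -0.42 and -0.52. Atg16l1, a scaffold of autophagosome formation, gave -0.57 ± 0.13 at 929 to 1222 in Pax3 and 1337 to 1985 in B6 livers, and its other probe set, below the limit on level, gave -0.23. Tspan32, a tetraspanin of blood cells, read 188, 78.9, 251 and 174 in Pax3 livers, against 508, 437, 425 and 368 in B6 livers, and its other probe set, below the limit on level, gave 0.58. Zfp862-ps, a zinc finger pseudogene whose probe set may also detect related transcripts, gave -1.07 ± 0.25 with all arrays and -1.29 without Pax3 replicate 3. Creb3l3 is described with the fatty acid genes.

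**Figure D1:**
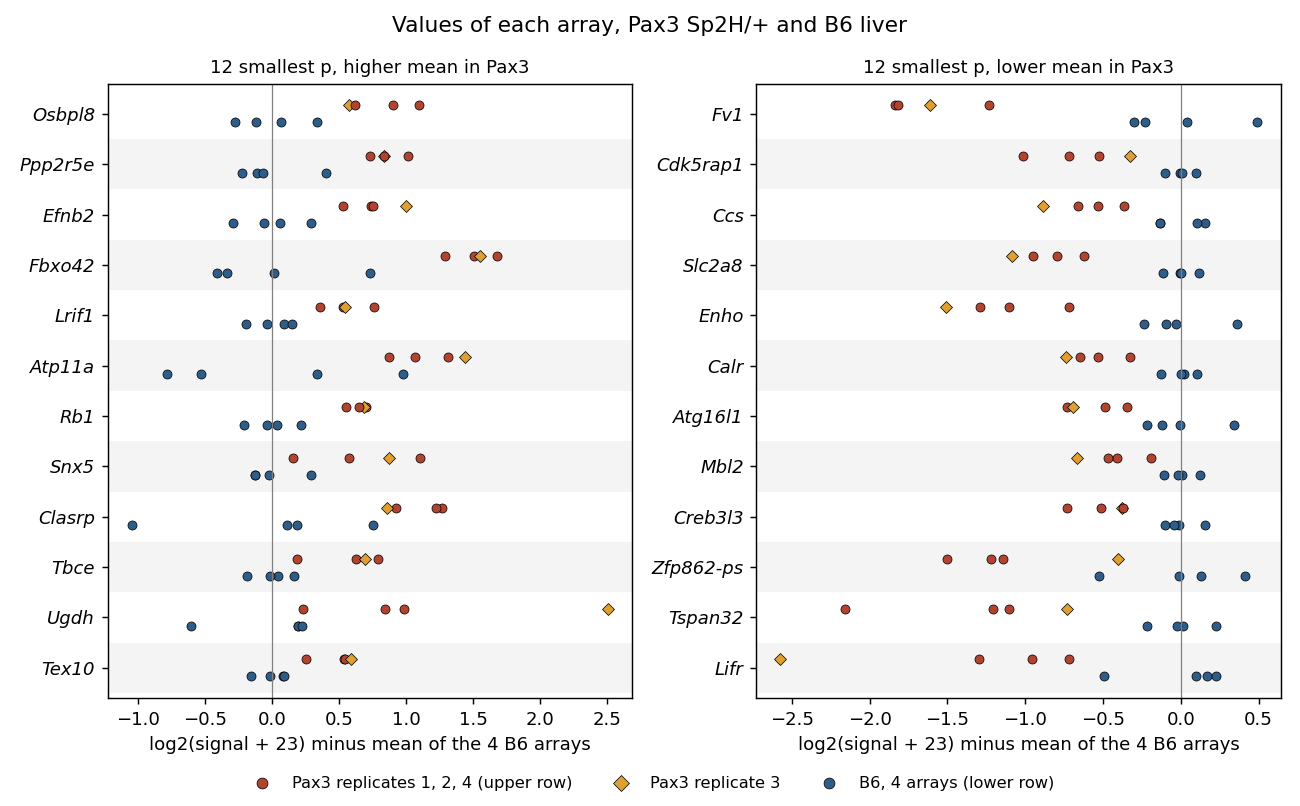
Each point is 1 array, as log2(signal + 23) minus the mean of the 4 B6 arrays, for the 12 genes with the smallest p and a higher mean in Pax3 livers (left) and the 12 with a lower mean (right); Pax3 points lie on the upper row of each gene, with replicate 3 as a diamond, and B6 points on the lower row. The largest differences were those of Fbxo42 at 1.51 and Fv1 at -1.63, and replicate 3 lay far from the other Pax3 arrays in Ugdh and Lifr.

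Because B6 is also the control of the Apob line, the same B6 arrays enter both comparisons, and the 2 differences of a gene are given side by side. Osbpl8 gave 0.80 for Pax3 and 1.01 for Apob (adjusted p = 0.000659), Ppp2r5e 0.85 and 1.11 (0.000985), Lrif1 0.55 and 0.74 (0.00145), Atg16l1 -0.57 and -0.76 (0.000985), and Cdk5rap1 -0.65 and -0.62 (0.00797), where each adjusted p is that of the Apob comparison. Atp11a gave 1.17 for Pax3 and 1.19 for Apob (limma adjusted p = 0.0183 for Apob), and Snx5 0.68 and 0.67 (0.0258). Fv1, Enho, Fbxo42 and Creb3l3 gave -1.63, -1.16, 1.51 and -0.50 for Pax3, and -0.03, 0.20, -0.25 and -0.05 for Apob. Of the 12 higher genes, Pax3 had the highest mean of the 9 groups in 7 and B6 the lowest in 6. Over all genes these shares were 15.1% and 10%. Of the 12 lower genes, Pax3 had the lowest mean in 11 and B6 the highest in 2, against 13.7% and 8.42% of all genes. These genes were chosen by their Pax3 minus B6 p, which favours such ranks.

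The Pax3 difference was also set against the mean difference of 2 other lines that have controls of their own, Lrp6 Cd heterozygotes against Cd wild type mice and Vangl2 Lp heterozygotes against Lp wild type mice. For this contrast 1 of 12820 genes was called (0.0078%), Cog7, and 1471 had an unadjusted p below 0.05 (11.5%). Cog7 is a subunit of the complex that tethers vesicles at the Golgi. It read 689, 605, 364 and 480 in Pax3 livers, against 276, 317, 227 and 214 in B6 livers, with no overlap. Its difference was 0.96 ± 0.25 in the Pax3 line (adjusted p = 0.2), -0.78 in the Cd line and -0.77 in the Lp line, and the contrast was 1.74 ± 0.31 (adjusted p = 0.0356). The group means were 534 ± 143 in Pax3 and 258 ± 47.1 in B6 mice (SD, n = 4 each), 308 ± 25.5 in Cd heterozygotes and 555 ± 132 in Cd wild type mice, and 336 ± 95.8 in Lp heterozygotes and 574 ± 32.0 in Lp wild type mice. In the Apob line, with the same B6 arrays, Cog7 gave 0.74. Leaving out Pax3 replicate 4 gave 49 called genes, Pax3 replicate 3 6, B6 replicate 2 10 and B6 replicate 3 4. The Cog7 call was lost without any 1 of Pax3 replicates 1 and 2 and B6 replicates 1 and 4, with adjusted p from 0.072 to 0.135, while the contrast itself stayed between 1.61 and 1.77 in these fits.

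The other 9 genes with the smallest p in this contrast did not pass it, with adjusted p from 0.0637 to 0.0681. Faim, an inhibitor of Fas-driven cell death, read 811, 714, 711 and 454 in Pax3 livers, against 429, 494, 504 and 349 in B6 livers, and the contrast was 0.97 ± 0.19. Lasp1, an actin-binding adaptor, gave 1.34 ± 0.26, Trim2, a ubiquitin ligase, 1.38 ± 0.29, and Tubb2a, a beta tubulin, 1.69 ± 0.36. Lasp1 had 8 other probe sets, whose Pax3 minus B6 values ran from -0.33 to 0.71, against 0.56 for the one used. Il15ra, the receptor chain that presents interleukin 15, gave -1.36 ± 0.29, with a Pax3 minus B6 value of -0.70 (-0.46 without replicate 3), and Fv1, Osbpl8, Tbce and Atg16l1 gave -1.91, 0.98, 0.85 and -0.74. The Pax3 minus B6 values of Lasp1, Trim2 and Tubb2a were 0.56, 0.62 and 1.08 (0.71 without replicate 3 for Tubb2a), against -1.14, -0.98 and -1.13 in the Lp line.

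**Figure D2:**
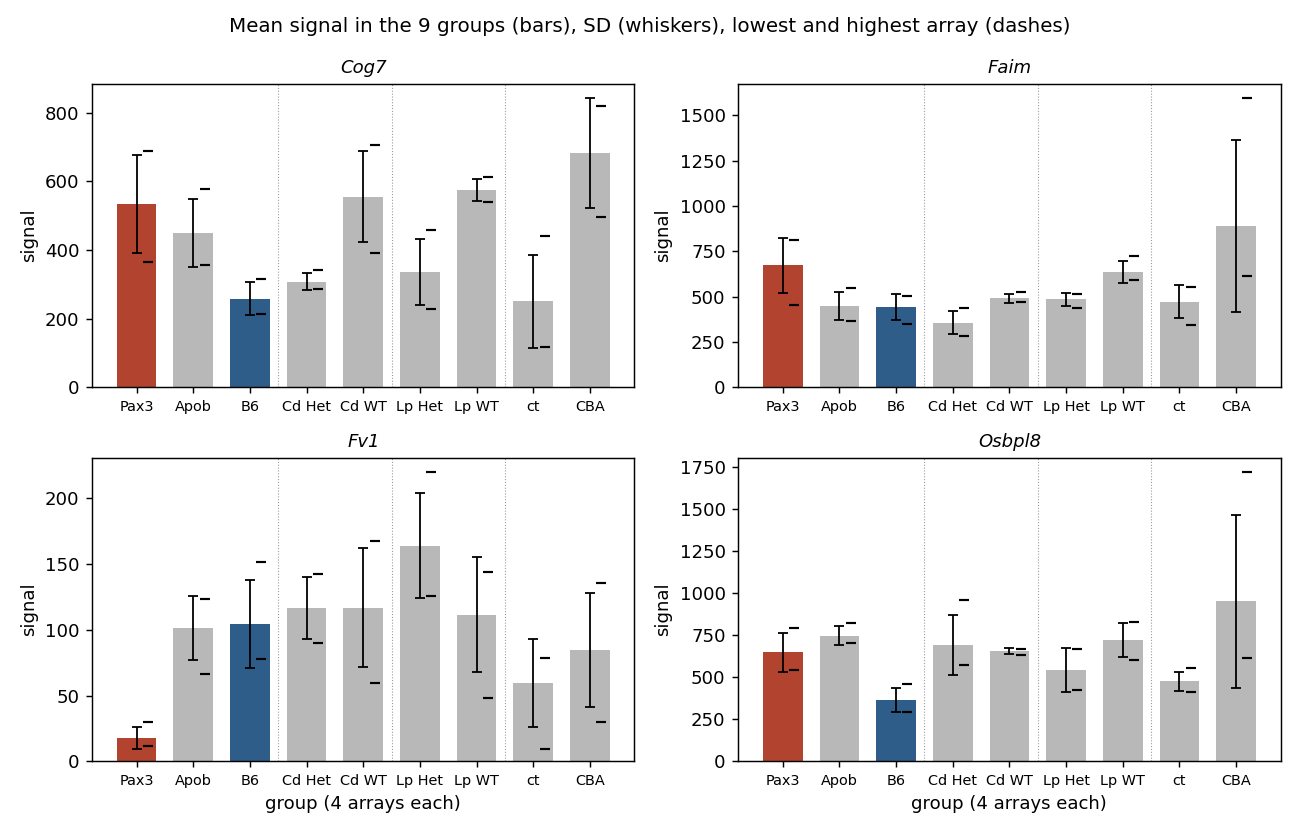
Bars give the mean signal of Cog7, Faim, Fv1 and Osbpl8 in the 9 groups, whiskers the SD and dashes the lowest and highest of 4 arrays, with the ct and CBA groups including the 2 arrays that were left out of the model; dotted lines separate each mutant group with its control. Cog7 was higher in Pax3 than in B6 and lower in Cd and Lp heterozygotes than in their controls, Fv1 was lowest in Pax3 at 17.9, and Osbpl8 was lowest in B6 at 363.

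The brightest genes of the array were lower on average in Pax3 livers. When genes were split by level into 10 bands of 1282 genes, the brightest band had a median signal of 7798, a median difference of -0.15 and 75% negative values. It held 245 of the 599 genes that were lower at an unadjusted p below 0.05. In the bands with median signals of 396 and 586 the medians were 0.06 and 0.06, and over all genes the median was 0.01. After quantile normalization, which gives all arrays the same distribution, the median of the brightest band was -0.03. The mean signal over all probe sets moved with this, at 784 to 840 on the Pax3 arrays and 863 to 900 on the B6 arrays. The part of array scaling in the differences of the brightest genes was not tested.

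Lists of highly expressed liver genes shared that shift. Of 10 hepatocyte markers tested, 6 had an unadjusted p below 0.05 and were lower, against 4.67% of all genes and 245 of the 1282 in the brightest band, and 0 passed after adjustment. The median was -0.38, and after quantile normalization it was -0.03 with 0 of the 10 lower at that p. Over all 12828 genes tested after quantile normalization, 639 were lower and 433 higher at that p. Without Pax3 replicate 3, the shares of all genes were 3.86% lower and 3.13% higher. Ahsg, the plasma protein fetuin-A, read 40310, 45390, 39940 and 43830 in Pax3 livers, against 58150, 53640, 53070 and 56540 in B6 livers, and Ttr, the thyroxine carrier transthyretin, gave -0.44 ± 0.13. Of 20 lipoprotein genes 10 were lower and 1 was higher at that p with all arrays (4.67% and 4.33% of all genes), 4 and 0 without Pax3 replicate 3, and 1 and 1 after quantile normalization, where the median was about 0 (-0.00322) against -0.24. Among them Apoa1 gave -0.38, Apoe -0.38 and Apoc3 -0.41, the last of these -0.29 without replicate 3. Complement and coagulation genes had a median of -0.25, with 10 of 26 lower at that p, 5 without replicate 3 and 1 after quantile normalization (median -0.09), with Plg, the precursor of plasmin, at -0.42 and C8b, a subunit of the membrane attack complex, at -0.82. Cytosolic ribosomal proteins and oxidative phosphorylation subunits had medians of -0.17 and -0.17, which turned to 0.03 and 0.01 after quantile normalization. Without Pax3 replicate 3, and without that normalization, the 2 medians were -0.16 and -0.11.

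Genes of fatty acid oxidation and targets of PPAR alpha leaned lower in Pax3 livers, and about as much without Pax3 replicate 3. PPAR alpha is the nuclear receptor that fatty acids activate during fasting, and its targets carry fatty acids into mitochondria and peroxisomes and oxidise them there. Of 25 genes tested, 24 had negative values, 12 of these an unadjusted p below 0.05, and 0 passed after adjustment. Of all 12820 genes 6250 were negative, and 4.67% were lower at that p. In the brightest band 75% were negative and 245 of 1282 were lower at that p. The median of the list was -0.38, and -0.38 without Pax3 replicate 3, against 0.01 over all genes. After quantile normalization the median was -0.21, and 22 were negative, as were 6963 of all 12828 genes. Then 5 of the list kept an unadjusted p below 0.05, namely Creb3l3, Vnn1, Cyp4a31, Slc25a20 and Pex11a. Of all 12828 genes 639 were lower at that p. On single arrays the mean of the list lay at -0.68, -0.43, -0.06 and -0.30 relative to B6.

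The promoters of 3 of these genes are shown because each holds the core motif that nuclear receptors such as PPAR alpha and its partner RXR are known to bind. They span 250 bases before to 50 bases after the gene's start, read 5′ to 3′ on the gene's strand, from RefSeq on GRCm38.p6. Capitals mark AGGTCA or, in Fabp1, also the direct repeat of AGGNCA with 1 base of any kind between its copies, each searched on both strands, so that the reverse strand shows TGACCT. The Creb3l3 window lies at chr10:81092542-81092841 on the minus strand, that of Fabp1 at chr6:71199629-71199928 on the plus strand and that of Acadm at chr3:153944594-153944893 on the minus strand.
Creb3l3: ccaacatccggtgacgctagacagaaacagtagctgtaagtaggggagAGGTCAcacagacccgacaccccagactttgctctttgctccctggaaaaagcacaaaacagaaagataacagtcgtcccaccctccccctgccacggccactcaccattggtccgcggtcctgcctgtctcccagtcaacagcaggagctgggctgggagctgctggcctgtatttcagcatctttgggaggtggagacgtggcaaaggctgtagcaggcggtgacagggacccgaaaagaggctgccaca
Fabp1: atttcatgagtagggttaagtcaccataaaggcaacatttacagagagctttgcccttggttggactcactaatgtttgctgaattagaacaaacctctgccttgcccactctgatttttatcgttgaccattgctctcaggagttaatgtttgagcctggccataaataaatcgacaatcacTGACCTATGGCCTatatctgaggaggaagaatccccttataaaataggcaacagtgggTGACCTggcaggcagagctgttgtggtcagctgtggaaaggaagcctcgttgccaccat
Acadm: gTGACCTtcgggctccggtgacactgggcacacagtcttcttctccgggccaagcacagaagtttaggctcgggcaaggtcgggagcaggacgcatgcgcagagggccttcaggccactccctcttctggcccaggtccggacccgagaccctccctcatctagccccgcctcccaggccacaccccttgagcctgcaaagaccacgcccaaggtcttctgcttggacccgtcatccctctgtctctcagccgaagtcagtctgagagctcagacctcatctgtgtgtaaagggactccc
The AGGTCA motif stood 202 to 197 bases before the start in this window of Creb3l3, which has a further window without it, and 249 to 244 bases before it in Acadm. In Fabp1 the repeat lay 67 to 55 bases before the start, and 1 of the 2 AGGTCA matches lay within it at 67 to 62 bases, the other at 9 to 4 bases. RefSeq gave a promoter for 10 of the 12 members at an unadjusted p below 0.05, and 4 of these held AGGTCA, as did 3 of 11 among the other members and 16.3% of all 32851 promoter windows. The repeat was found in 1 of the 10, in 0 of the 11 and in 0.381% of all windows. A match is a description of these letters and not a binding site.

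Creb3l3, a liver transcription factor of fasting that acts beside PPAR alpha, had the smallest p of the list. It read 7680, 8943, 9791 and 9864 in Pax3 livers, against 12630, 11870, 12390 and 14230 in B6 livers, so the groups did not overlap. The difference was -0.50 ± 0.12 (adjusted p = 0.168) and -0.38 ± 0.12 after quantile normalization, and the contrast with the Cd and Lp lines was -0.65 ± 0.14 (adjusted p = 0.0681). Vnn1, a pantetheinase that is a standard PPAR alpha target, read 7624, 9968, 6520 and 9860 in Pax3 livers, against 14970, 13490, 16500 and 20760 in B6 livers. Its difference was -0.95 ± 0.26, and its second probe set gave -1.11. Slc25a20, which carries acylcarnitines into mitochondria, gave -0.48 ± 0.21 and -0.53 with its second probe set, and Pex11a, a factor of peroxisome division, gave -0.51 ± 0.22.

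Enzymes of mitochondrial beta oxidation had smaller differences. Hadhb, the thiolase subunit of the trifunctional protein, read 8556, 10340, 11170 and 9156 in Pax3 livers, against 13820, 12770, 11570 and 13530 in B6 livers, and gave -0.40 ± 0.14, and its partner subunit Hadha gave -0.38 ± 0.19. Acadvl, Acadl and Acadm, the dehydrogenases of very long, long and medium acyl chains, gave -0.35, -0.25 and -0.30. Fabp1, the fatty acid binding protein of hepatocytes, read 56550, 58980, 46540 and 57080 in Pax3 livers, against 74550, 68160, 69010 and 72690 in B6 livers. Its -0.38 came to -0.02 after quantile normalization, and that of Acaa1b, a peroxisomal thiolase, from -0.45 to -0.12. Both belong to the brightest genes of the array.

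Not all of the pathway leaned the same way on every array. Cyp4a31, a fatty acid omega hydroxylase whose probe set may also detect other Cyp4a genes, read 896, 1134, 3351 and 330 in Pax3 livers, against 2140, 2277, 2162 and 2421 in B6 livers. Pax3 replicate 3 lay above all B6 arrays and the other 3 below them, and without it the difference of -1.10 became -1.65. Pdk4, the kinase that spares glucose by blocking pyruvate dehydrogenase, read 321, 253, 3051 and 304 in Pax3 livers, against 505, 267, 225 and 433 in B6 livers, so its 0.61 rested on replicate 3. Cpt1a, the gate of mitochondrial fatty acid entry, gave -0.19 ± 0.25 (-0.34 without replicate 3), and Ppara itself gave -0.06 ± 0.28.

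**Figure D3:**
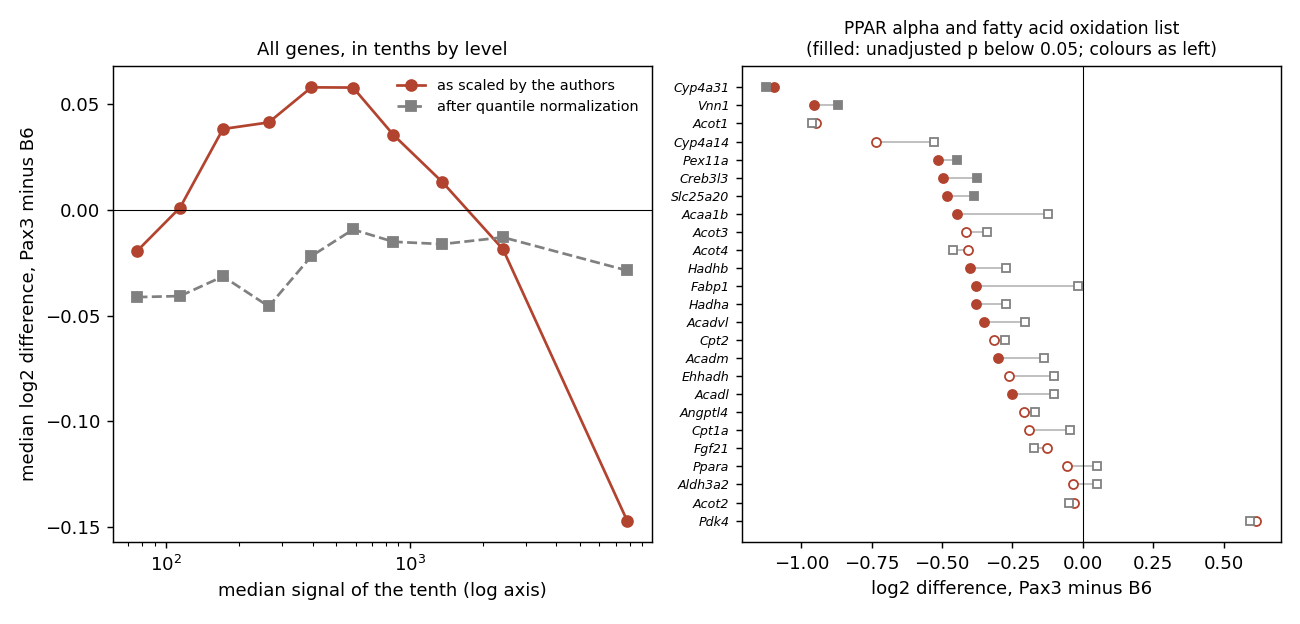
Left, the median log2 difference, Pax3 minus B6, in 10 bands of genes by level against the median signal of each band on a log axis, before and after quantile normalization; the last point is at -0.15 before and -0.03 after it. Right, the difference of each of 25 fatty acid oxidation genes before (circles) and after (squares) quantile normalization, filled where the unadjusted p is below 0.05, which holds for 12 genes before and 5 after it.

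Several genes of growth hormone signalling had lower means in Pax3 livers. Growth hormone acts on hepatocytes through its receptor and STAT5, which drives Igf1 and Socs2, and its pattern of release sets which liver genes are high in males or in females. Igf1, insulin-like growth factor 1, read 14830, 17640, 8296 and 16540 in Pax3 livers, against 24730, 21630, 17180 and 27720 in B6 livers. Only Pax3 replicate 2 reached into the B6 range, and the difference was -0.71 ± 0.17 with all arrays and -0.46 without replicate 3. Its 3 other probe sets gave -0.65, -0.70 and -0.79. Igfbp4, a binding protein that holds IGF1 inactive, gave -0.39 ± 0.10 with no overlap, and its 5 other probe sets gave -0.28 to -0.45.

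Igfals, which keeps IGF1 in a long-lived complex in plasma, read 1617, 2736, 1068 and 3255 in Pax3 livers, against 3219, 3960, 3435 and 4007 in B6 livers. Ghr, the growth hormone receptor, read 12940, 14110, 6904 and 14290 in Pax3 livers, against 15380, 14860, 15360 and 15190 in B6 livers. For both the lowest value was that of replicate 3, and without it the differences of -0.87 and -0.39 were -0.58 and -0.14. Socs2, which switches the receptor off, gave -1.01 ± 0.44 and -1.27 without replicate 3. Igfbp1, a fasting-responsive IGF binding protein, gave 0.64 ± 0.31. Of the 22 genes of insulin, growth hormone and IGF signalling, 1 was higher and 5 were lower at an unadjusted p below 0.05 (4.33% and 4.67% of all genes). Without replicate 3 these were 0 and 3 (3.13% and 3.86%). The median was -0.14, and 0 passed after adjustment. After quantile normalization the median of this list was -0.07, with 1 higher and 3 lower at an unadjusted p below 0.05 (433 and 639 of all 12828 genes).

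All 13 male-biased liver genes tested had negative values in these female mice, with a median of -0.23 (-0.21 without Pax3 replicate 3) and 4 at an unadjusted p below 0.05 (4.67% of all genes were lower at that p). Slco1a1, an organic anion transporter that is low in most females, read 166, 1139, 60.3 and 815 in Pax3 livers, against 2181, 2131, 1325 and 2627 in B6 livers. The groups did not overlap, the difference was -2.53 ± 0.72 with all arrays and -1.84 without replicate 3, and a second probe set gave -1.999. Hsd3b5, a steroid dehydrogenase, read 97.1, 460, 9.08 and 184 in Pax3 livers, against 469, 835, 310 and 654 in B6 livers. In the Apob line, with the same B6 arrays, Slco1a1 and Hsd3b5 gave 1.27 and 2.27, against -2.53 and -1.99 in the Pax3 line. The Hsd3b5 values of the 2 groups overlapped, and its value was -1.28 without replicate 3. Keg1, a glycine acyltransferase-like gene, and Ugt2b38, a glucuronosyltransferase with close relatives, gave -0.91 and -1.14. After quantile normalization 12 of the 13 were negative, as were 6963 of all 12828 genes. The 15 female-biased genes had a median of -0.06, and 0.09 without replicate 3.

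Folate and neural tube genes, to which the line's folate response gives context, showed little difference. The 24 folate cycle genes had a median of 0.03, 0 were higher and 1 was lower at an unadjusted p below 0.05 (4.33% and 4.67% of all genes). That gene was Folr2, a folate receptor of macrophages, which read 677, 762, 704 and 710 in Pax3 livers, against 884, 867, 1061 and 1285 in B6 livers, a difference of -0.49 ± 0.16 with no overlap. Mtr, methionine synthase, read 131, 142, 164 and 142 in Pax3 livers, against 85.8, 77.7, 125 and 87.1 in B6 livers, and gave 0.53 ± 0.31 with no overlap. Of 23 listed partners and targets of PAX3 on the array 13 were tested, with a median of -0.07 and 0 at an unadjusted p below 0.05. Without Pax3 replicate 3 their median was 0.03, with 1 lower at that p (3.86% of all genes). Among 16 tested genes of other neural tube defect loci, Fzd6, a planar polarity receptor, gave 0.50 ± 0.19 and Grhl2 gave -0.83 ± 0.32, and that of Grhl2 was -0.38 without replicate 3.

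The genes around Pax3 on chromosome 1 were looked at as a group. Of the nearest 100 genes with a probe set on each side, in the RefSeq order, 137 were tested, 0 were called, and 17 had an unadjusted p below 0.05, or 12.4% against 9% over all genes. Of these 5 were higher and 12 lower, and the median was -0.06. The smallest p was that of Atg16l1, which lies 69 genes from Pax3. Fbxo36, an F-box gene 31 genes away, gave -0.67 ± 0.25 with no overlap, and Spp2, a secreted phosphoprotein of the liver 76 genes away, gave -0.49 ± 0.19 with no overlap (-0.32 without replicate 3).

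Further values stood outside these sets. Lcn2, the acute phase protein lipocalin-2, read 1780, 784, 2142 and 1327 in Pax3 livers, against 293, 401, 773 and 507 in B6 livers, a difference of 1.56 ± 0.46, and the same B6 arrays gave 1.39 in the Apob line. The acute phase list as a whole had a median of -0.21, with 19 of 25 genes negative. At an unadjusted p below 0.05, 1 was higher (Lcn2) and 8 were lower (4.33% and 4.67% of all genes). Without Pax3 replicate 3 these were 2 and 4 (3.13% and 3.86%). After quantile normalization 3 were higher and 0 lower (433 and 639 of all 12828 genes), with a median of -0.08. Lcn2 is also listed among the neutrophil markers, of which 8 were tested, with a median of 0.18 and no other member at an unadjusted p below 0.05. Ass1, the urea cycle enzyme that joins citrulline and aspartate, read 885, 1118, 934 and 2503 in Pax3 livers, against 370, 825, 521 and 409 in B6 livers, measured here by a single probe set. It was the only 1 of 22 urea cycle and amino acid breakdown genes that was higher at that p with all arrays, where 4 were lower (4.33% and 4.67% of all genes). With all arrays 16 were negative and the median was -0.23. Without Pax3 replicate 3, 2 were higher and 1 was lower (3.13% and 3.86%), with a median of -0.01. Quantile normalization left 1 higher and 1 lower. Derl3, a factor that exports misfolded proteins from the endoplasmic reticulum, gave -1.17 ± 0.38, and Pdia6, a disulfide isomerase, gave -0.44 ± 0.19, and the groups overlapped in both genes. Among 24 genes of endoplasmic reticulum stress, 3 were lower at that p (4.67% of all genes), namely Calr, Derl3 and Pdia6. Without Pax3 replicate 3, 2 of the 24 were lower (3.86% of all genes).

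Pax3 replicate 3 differed from its group in genes of cell division, connective tissue, oxidative stress and cytochromes. The mean of 21 proliferation genes lay 1.34 log2 units above B6 on this array, and between -0.30 and 0.22 on the other 3 Pax3 arrays. Mki67, a marker of dividing cells, read 94.6, 156, 560 and 60.01 in Pax3 livers, against 55.2, 243, 90.8 and 91.3 in B6 livers. Ccnb2, a mitotic cyclin, read 56, 107, 791 and 11.9 in Pax3 livers, against 162, 162, 155 and 113 in B6 livers. Birc5, the mitotic protein survivin, read 574 on replicate 3 and 19.2 to 85.8 on the others. The median of the list was 0.30 with this array and -0.08 without it, and the genes at an unadjusted p below 0.05 were 4 higher and 0 lower with it, 2 higher and 1 lower without it. Over all genes the higher and lower shares were 4.33% and 4.67% with it, and 3.13% and 3.86% without it.

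Markers of stellate cells and fibroblasts moved with it, at a mean of 1.31 above B6 on replicate 3 and -0.26 to 0.05 on the other Pax3 arrays. Col1a1, a chain of type I collagen, read 17.8, 121, 1026 and 13.7 in Pax3 livers, against 103, 98.6, 34.9 and 46.0 in B6 livers, and Col3a1, type III collagen, read 1658, 2526, 11310 and 1367 in Pax3 livers, against 1937, 2350, 1881 and 1752 in B6 livers. Without replicate 3 the median of these 13 markers was -0.14, against 0.25 with it. Kupffer cell, T cell and B cell markers were at 0.29, 0.39 and 0.36 above B6 on it, sinusoidal endothelial markers at -0.03 and hepatocyte markers at -0.49. On B6 replicate 3 those first 3 lists were at 0.21, 0.30 and 0.03. The 4 adipocyte markers tested were at 1.27 on Pax3 replicate 3 and -0.10 to 0.68 on the other Pax3 arrays. Neutrophil markers were at 0.69 on it and 0.03 to 0.32 on the others. The part of the cell mixture in the values of this array was not tested.

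Targets of NRF2, the sensor of oxidative stress, were high on the same array. Gsta2, a glutathione transferase, read 3580, 1228, 16140 and 1181 in Pax3 livers, against 1257, 1193, 1069 and 666 in B6 livers, Srxn1, which restores oxidised peroxiredoxins, read 3835 on replicate 3 and 629 to 731 on the others, and Cbr3, a carbonyl reductase, read 2129 on it and 73.2 to 119 on the others. Of 23 glutathione and NRF2 genes, 6 were higher and 1 was lower at an unadjusted p below 0.05 with all arrays (4.33% and 4.67% of all genes), against 3 and 1 without replicate 3 (3.13% and 3.86%), and the median was 0.18 with it and 0.03 without it. Psat1, of serine synthesis, was at 972 on it against 53.7 to 75.4 on the other Pax3 arrays, and Asns, asparagine synthetase, at 966 against 159 to 175. The 10 genes farthest above the other Pax3 arrays also held Ubd, a ubiquitin-like modifier, at 3131 against 46.8 to 121, Ly6d, a membrane antigen, at 4994 against 124 to 199, the epithelial genes Sprr1a and Slpi, the receptor Tnfrsf12a and the lipid transfer gene Osbpl3.

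The genes farthest below on it included cytochromes, a sulfotransferase and secreted proteins. Wfdc21, a secreted inhibitor-like protein, read 18680, 17910, 720 and 20310 in Pax3 livers, against 19650, 21480, 20830 and 23270 in B6 livers. Sult3a1, a female-biased sulfotransferase, read 12.2 on replicate 3 and 565 to 4029 on the other Pax3 arrays, and Cyp2b13, a female-biased cytochrome, 258 against 5861 to 8262. Thrsp, a regulator of fat synthesis, read 611 against 10300 to 25330, and Mup3, a major urinary protein whose probe set can detect its near-identical relatives, read 3021 against 34210 to 37210. Cyp3a16, Cyp3a44 and Cyp2c54, which belong to cytochrome families with near copies, were among the 10 as well, beside Hectd2os and Tmie. The means of male-biased and female-biased genes were both low on this array, at -1.40 and -1.36 relative to B6, and xenobiotic cytochromes were at -0.77, against 0.04 to 0.12 on the other 3.

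**Figure D4:**
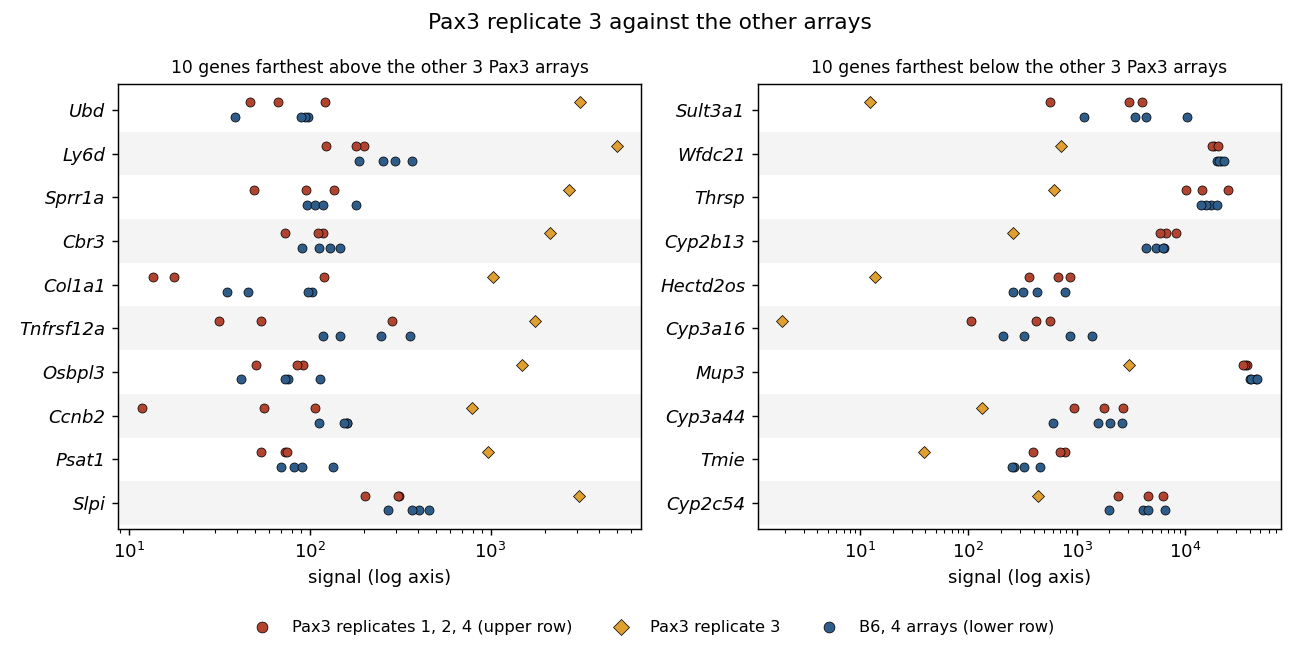
The signal of each array, on a log axis, for the 10 genes farthest above (left) and the 10 farthest below (right) the other 3 Pax3 arrays on Pax3 replicate 3; Pax3 points are on the upper row of each gene, with replicate 3 as a diamond, and B6 points on the lower row. The other 3 Pax3 arrays lay near the B6 arrays in most of these genes, as in Wfdc21 with 17910 to 20310 against 19650 to 23270.

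Single mice of the Pax3 group differed in other pathways too. The mean of 20 cholesterol synthesis genes was at 0.65, 0.43, -0.29 and -1.08 on Pax3 replicates 1 to 4 relative to B6, and at 0.12, 0.46, -0.39 and -0.20 on the B6 arrays. Sqle, squalene epoxidase, read 209 on Pax3 replicate 4, the lowest of the 8 arrays, and 0 of the 20 genes had an unadjusted p below 0.05. The mean of 17 clock output genes was -0.48 on Pax3 replicate 1 and 0.43 on replicate 4, while the 13 core clock genes had a median of 0.09 with 0 at that p. Heat shock genes had a median of -0.14 with all arrays and -0.24 without replicate 3. Of 20 genes 2 were lower at an unadjusted p below 0.05 with all arrays (4.67% of all genes) and 6 without replicate 3 (3.86%). After quantile normalization 1 was lower (639 of all 12828 genes). Hspa8, the constitutive HSC70 chaperone, gave -0.44 with all arrays and -0.59 without replicate 3. Interferon-stimulated genes had a median of -0.08 with it and -0.29 without it.

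**Figure D5:**
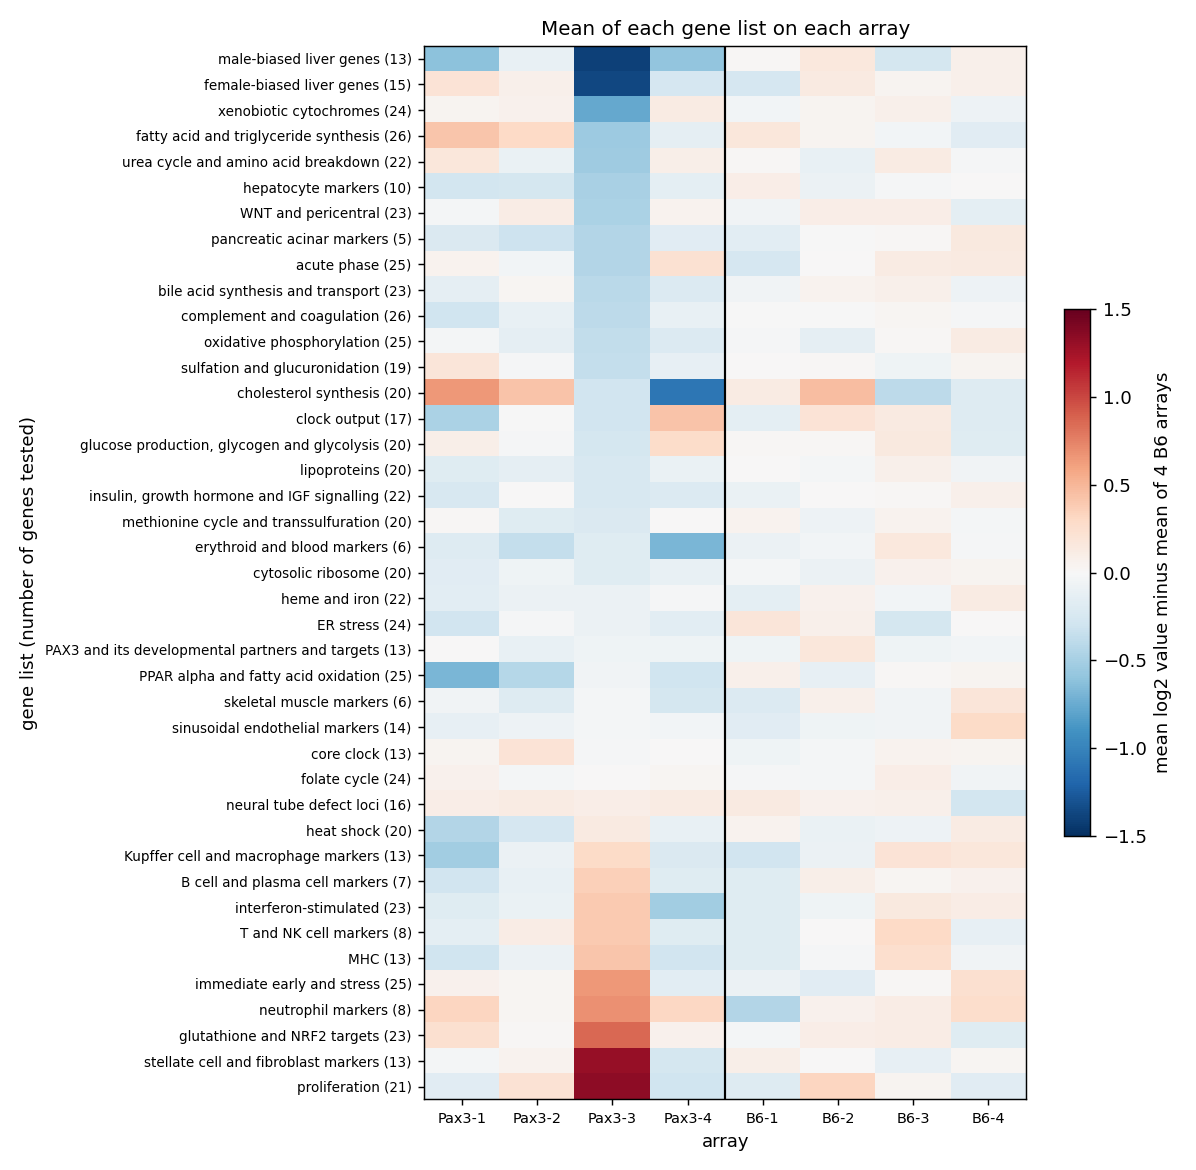
Colour gives the mean log2 value of each gene list on each array minus the mean of the 4 B6 arrays, with the Pax3 arrays left of the black line and the B6 arrays right of it, for lists with at least 5 tested genes, sorted by Pax3 replicate 3. On replicate 3 the ends were male-biased liver genes at -1.40 and proliferation at 1.34, and fatty acid oxidation genes were at -0.68, -0.43, -0.06 and -0.30 on the 4 Pax3 arrays.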

How the data were processed

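RNA from whole liver was labelled as biotinylated cRNA and hybridised to Affymetrix mouse arrays, per the labels' protocols. The authors deposited 1 linear intensity per probe set, made with MAS5 per the submitters' processing notes, for 45101 probe sets on 36 arrays, each scaled to a mean of 500 after trimming 2% at each end. Genome builds are not used by these values.

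Intensities were analysed as log2(intensity + 23). Control probe sets were dropped. The mean log2 value of a probe set had to exceed the limit on level, the 40th percentile of all log2 values of single arrays. The brightest probe set stood for each of 12820 genes. limma 3.58.1 in R 4.3.3 (lmFit, eBayes with a trend) fitted 9 group means to 34 arrays. CBA replicate 4 and ct replicate 3 were left out, with GAPDH 3' to 5' ratios of 52.5 and 1.72 against 0.729 to 0.956 on the others. Benjamini-Hochberg adjusted p below 0.05 was called. The number of arrays limits the precision, and no 2 arrays held identical values. The model was tested on simulated data.

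The comparison, gene lists and tests were chosen with earlier results of these data known. The text names the 12 genes of smallest p in each direction, the 10 of the contrast with the Cd and Lp lines, Pax3, and further genes picked after their values were seen. The plots come from matplotlib 3.10.9 (Python 3.11.15). Alternatives covered normalization, offset, filter, arrays used, variance model, array weights, probe set choice, the replicate block and each replicate left out.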

Additional observations from a re-analysis of the deposited data

Results flagged for a closer look

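Of 117 named genes looked at, Pax3 replicate 3 lay apart from the other 3 Pax3 arrays as the highest value in 9 and as the lowest in 7, by the gap to the nearest array relative to the range of the group. Over all 12820 genes it was so placed as the highest in 220 (1.72%) and as the lowest in 165 (1.29%). On the other arrays the shares per direction ran from 0.242% to 1.1%. Chance alone flags about 1 in 20 groups, counting any array in either direction. That rate is therefore not the one for a single array in a single direction. Pax3 replicate 4 was apart in 2 genes, and B6 replicates 1, 2, 3 and 4 in 1, 1, 1 and 2. Several of these genes were picked after their values were seen, among them the 20 farthest from the other Pax3 arrays on replicate 3, so the counts describe the picks.

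The genes with Pax3 replicate 3 highest were Ly6d at a signal of 4994 (124 to 199 on the other Pax3 arrays), Cbr3 at 2129 (73.2 to 119), Osbpl3 at 1484 (50.6 to 92.4), Psat1 at 972.4 (53.7 to 75.4), Slpi at 3095 (203 to 311), Pdk4 at 3051 (253 to 321), Srxn1 at 3835 (629 to 731), Col1a2, a collagen chain, at 2778 (697 to 788) and Asns at 965.8 (159 to 175). Those with it lowest were Wfdc21 at 720.1 (17910 to 20310), Cyp2b13 at 257.9 (5861 to 8262), Mup3 at 3021 (34210 to 37210), Ghr at 6904 (12940 to 14290), Apoe at 36510 (43470 to 43900), Apoc3 at 26910 (35940 to 37900) and Spp2 at 5729 (9017 to 9491).

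The same array had the lowest median correlation with its group, 0.955, the lowest mean signal, 783.5, and the lowest mean of the xenobiotic cytochromes relative to B6, -0.768. On Pax3 replicate 4, Tex10 was lowest at 998.5 (1226 to 1267) and Acadvl highest at 12640 (10330 to 10590). Pax3 replicate 2 had the highest mean of insulin, growth hormone and IGF genes relative to B6, 0.00287, where the other 3 Pax3 arrays were at -0.24, -0.24 and -0.20.

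Among the B6 arrays, replicate 4 was lowest in Ugdh at 1390 (2426 to 2483) and in Ccnb2 at 112.5 (155 to 162), replicate 1 was lowest in Ubd at 38.94 (90.0 to 98.3), and replicate 2 was highest in Rrm2, a ribonucleotide reductase subunit, at 559.7 (389 to 411). B6 replicate 3 was highest in Slc4a1 at 167.9 (78.3 to 84.4).

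Cog7 differed between the Pax3 line and the mean of the Cd and Lp lines by 1.738 ± 0.31, with a limma adjusted p of 0.0356 and positive values in the Pax3 line only among these 3 lines.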

How the results depend on the processing

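Between Pax3 and B6, 0 genes were called in every alternative run except array weights (25) and the fit without B6 replicate 2, where 1 was called, Il1b; leaving out each replicate in turn thus gave 0 to 1. Genes at an unadjusted p below 0.05 numbered 1154 of 12820, against 688 of 12836 with all 36 arrays and 895 to 1548 with a replicate left out. Over every probe set, 2080 of 25943 were at that p. Counts over every probe set are of probe sets and not of genes. For the contrast with the Cd and Lp lines, 1 gene was called, against 12 with quantile normalization, 0 with median centring, 0 with no filter, 0 with no variance trend, 204 with array weights, 12 over every probe set, 2 with the mean of probe sets, 4 with the replicate block, and 0 to 49 with a replicate left out. The 8 arrays alone could not give this contrast. Lifr turned to 0.00718 when probe sets whose names mark shared targets were dropped, where another probe set stands for it. Over the named genes, 673 values kept their direction and side of the threshold, 49 came to pass it, 7 no longer passed it and 1 turned its sign. All 7 belong to Cog7, the only named value that passed in the main fit. The other values count as kept when they shrink. Ppp2r5e fell from 0.85 to 0.0155 with the 8 arrays alone, and Efnb2 from 0.76 to 0.179 with the mean of probe sets. Of genes at an unadjusted p below 0.05, 48.1% were higher, against 40.4% with quantile normalization and 37.6% with median centring.

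With the replicate block 0 genes were called between Pax3 and B6. Arrays of the same number had deviations that correlated at 0.07, 0.05, 0.04 and -0.11, and 2 of 4 correlated best with their own number, so the numbers were not taken as pairs.

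The number of arrays and signal near background limit low genes such as Pax3, Fv1, Zfp862-ps and Slc4a1.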

Other observations

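Heme synthesis, bile acid, amino acid and stress genes gave further values, none of which passed the limma test after adjustment. Fech, the enzyme that puts iron into heme, read 4981, 5076, 5380 and 5985 in Pax3 livers, against 6843, 6321, 7290 and 6079 in B6 livers, a difference of -0.31 ± 0.11 with no overlap. Uros, an earlier enzyme of that pathway, gave -0.50 ± 0.23, and Blvrb, a biliverdin reductase, gave -0.52 ± 0.20, both without overlap. Of 22 heme and iron genes, 1 was higher and 4 were lower at an unadjusted p below 0.05, against 4.33% and 4.67% of all genes. Without Pax3 replicate 3 these were 0 and 2, against 3.13% and 3.86% of all genes. Slc4a1, the anion exchanger of red cells, read 41.4, 10.8, 77.7 and 24.9 in Pax3 livers, against 84.4, 78.3, 168 and 84.1 in B6 livers. Of the Pax3 arrays only replicate 3 lay above the limit on level, so the gene was tested through the groups where it is brighter. It was the only one of 6 erythroid markers lower at an unadjusted p below 0.05 with all arrays (4.67% of all genes). Without Pax3 replicate 3, 2 of the 6 were lower (3.86%).

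Of 23 bile acid genes, 5 were lower at that p with all arrays (4.67% of all genes), and 1 was lower (3.86%) and 2 higher (3.13%) without Pax3 replicate 3. Slc10a1, the transporter that takes bile acids up from blood, gave -0.40 with all arrays and -0.07 without replicate 3, and Hsd3b7, an enzyme of bile acid synthesis, gave -0.43 and -0.22. Agxt, which clears glyoxylate, gave -0.58 with all arrays and -0.44 without replicate 3. Among stress genes, Gadd45b, a growth arrest gene, read 118, 107, 144 and 199.9 in Pax3 livers, against 247, 206, 323 and 240.4 in B6 livers, and Zfp36, which speeds the decay of cytokine messages, read 2504, 2252, 2304 and 2731 in Pax3 livers, against 1709, 1717, 1317 and 1998 in B6 livers. The groups did not overlap in either gene, and the differences were -0.76 ± 0.25 and 0.54 ± 0.24.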
